A study of Mus musculus with 4 samples.

Results

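RNA levels of a leukaemia carrying NRASG12V were read at the first time sampled, labelled 48 h after NRASG12V was turned off. They were set against the library labelled NRASG12V on. The comparison took every gene with at least 1 FPKM in either library, which left 11739 of 23235 genes. Of these, 360 passed through the on library alone and 497 through the 48 h library alone, so their direction was built in. FPKM are fragments of a gene relative to its transcript length and to library size, here scaled separately for each off time. Each change is log2((48 h FPKM + 1)/(on FPKM + 1)), a scale that understates the change of low genes. The 3 genes just inside the limit were Rasal1 (1.0001 FPKM on, 0.125 FPKM at 48 h), Mapk8ip1 (0.491 and 1.0006 FPKM) and Klrb1a (0.0524 and 1.002 FPKM). Just outside lay Plekha7 (0.999 and 0.482 FPKM), Adamts14 (0.533 and 0.997 FPKM) and 9030204H09Rik (0.208 and 0.997 FPKM).

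The cells were mouse acute myeloid leukaemia of the genotype NRASG12V/Mll-AF9, passed by tail vein into SCID/Beige mice, whose immune defects reach T, B and natural killer cells. Both groups carried the Mll-AF9 fusion and had been left to grow to overt leukaemia. The on library is labelled with expression on, and the off libraries received doxycycline by injection and in the drinking water. Each group is 1 library, so no difference below has a replicate check or a p-value, and a count past 2-fold is a description of these 2 libraries. No group combines doxycycline with continued NRASG12V expression, so the drug and the switch cannot be told apart. The labels name neither the tissue harvested nor the number of mice behind each library.

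NRAS is a small GTPase that, when bound to GTP, passes growth factor signals to the RAF, MEK and ERK kinases and to PI3 kinase. The G12V form stays loaded with GTP. ERK drives Ets and AP-1 family transcription and also the phosphatases and Sprouty-type proteins that damp its own signal. MLL-AF9 recruits transcription elongation factors to Hoxa genes and their partners and holds blood progenitors in an immature myeloid state. Myeloid cells make their granule proteins in order, with the primary granule proteases first, then secondary granule and gelatinase granule proteins.

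Most genes differed little at 48 h. The log2 change lay within 0.5 of 0 for 62.2% of genes, and the middle of the distribution ran from -0.47 at the 25th percentile to 0.24 at the 75th. A 2-fold or larger difference was seen at 1156 genes (9.85%), of which 587 (5.0%) were higher at 48 h and 569 (4.85%) lower, 17 and 14 of them short RNA rows. These shares are the background for every list below. Outside short RNA, a 4-fold rise or more was found at 56 genes and a 4-fold fall at 42, and at 8-fold the counts were 4 and 10. The median change was -0.14, and -0.15 among the 10882 genes at 1 FPKM or more in both libraries. With that last shift set to 0 the split became 811 higher and 395 lower. For scale, the 72 h library differed at least 2-fold from the 48 h library at 63 of 11654 genes (0.541%), with 22 higher (0.189%) and 41 lower (0.352%).

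**Figure D1:**
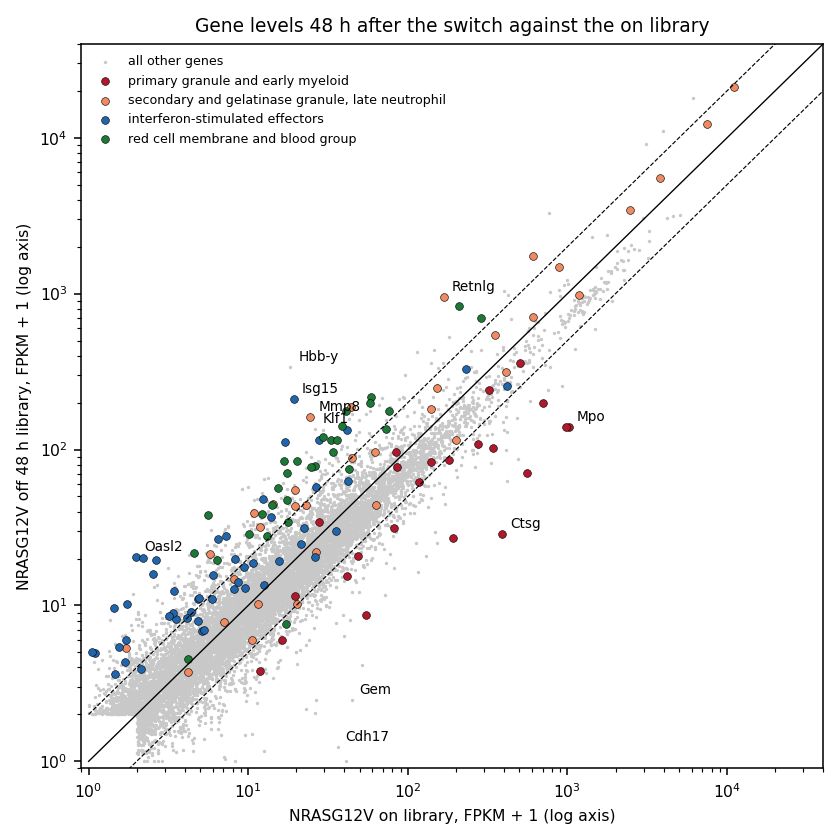
Level of each gene in the off 48 h library (vertical, FPKM + 1, log axis) against the on library (horizontal, FPKM + 1, log axis), short RNA rows left out. The solid line marks equal levels and the dashed lines 2-fold. Cdh17 and Gem lie far below, Hbb-y and Isg15 far above, and coloured points are the members of 4 gene lists.

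Myeloid markers of the labelled leukaemia were present in both libraries. All 11 reached 1 FPKM in both, and they summed to 4240 FPKM on and 3124 FPKM at 48 h. Mpo went from 1025 to 139 FPKM and Elane from 979 to 138 FPKM, while Lyz2 went from 1771 to 2389 FPKM. Of the others, Itgam, Csf1r, Fcgr3 and Cebpa were also lower, and Ptprc, Cd33, Csf3r and Kit higher. Markers of other blood cells were also present in both libraries. The 8 erythroid markers summed to 7469 FPKM on and 23071 FPKM at 48 h, the 7 measured neutrophil markers to 14478 and 23316 FPKM, and the 6 megakaryocyte markers to 197 and 285 FPKM. The B cell markers summed to 14.3 and 5.004 FPKM, with Pax5 under 0.1 FPKM in both, the T cell markers to 3.59 and 9.44 FPKM, and the natural killer cell markers to 6.46 and 18.6 FPKM. Stromal markers summed to 185 and 292 FPKM, and liver markers stood at no more than 0.064 FPKM. In bulk RNA, a change in the number of cells of a type and a change in RNA per cell cannot be told apart, and the part of these cell types in the results below was not tested.

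The Nras row stood at 24.5 FPKM on and 17.1 FPKM at 48 h, a log2 change of -0.49 that is short of 2-fold. The labels do not say whether reads of the NRASG12V transgene map to this row, so the level does little to check the switch. The AF9 gene, Mllt3, went from 4.14 to 9.09 FPKM, a log2 change of 0.97 that passed 2-fold with the median shift set to 0 (1.12), and Mll1 from 3.10 to 5.05 FPKM. These rows do not separate the fusion from the normal genes.

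The largest falls named a mixed set of surface, secreted and granule genes. Cdh17, a cadherin known from gut epithelium, went from 35.5 FPKM on to 0.230 FPKM at 48 h, a log2 change of -4.89. Gem, a small GTPase that restrains calcium channels, went from 43.6 to 1.49 FPKM (-4.16). Both were almost gone at the first time sampled, and both stayed there: Cdh17 was at 0.334 FPKM at 72 h and 0.153 FPKM at 96 h, and Gem at 1.77 and 1.61 FPKM. The later values are on the scale of the 48 h table, reached through the on column that the tables share, so every comparison with the on library rests on that same library.

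Secreted proteins were next. The chemokine Ccl2 was at 25.1 FPKM on and 1.06 FPKM at 48 h (-3.67), with 0.693 FPKM at 72 h and 0.602 FPKM at 96 h. Spp1 (osteopontin, an adhesive phosphoprotein) went from 50.4 to 3.15 FPKM (-3.63), and Dmkn (dermokine) from 21.97 to 1.16 FPKM (-3.41). The basophil protease Mcpt8 went from 25.7 to 1.48 FPKM and the eosinophil-type ribonuclease Ear11 from 11.6 to 0.169 FPKM (each -3.43). The 5 basophil and mast cell markers summed to 34.8 FPKM on and 5.16 FPKM at 48 h, with Mcpt8 most of the on sum. Prss34, Ms4a2 and Fcer1a were also lower, and Cpa3 went from 1.62 to 1.95 FPKM. The 4 eosinophil markers summed to 311 and 355 FPKM. Of 21 passing members of the wider basophil, mast cell and eosinophil list, 3 were at least 2-fold lower and 2 higher. Its median was 0.22, with 7 members below 0 and 14 above, and 3 passed through the on library alone and 2 through 48 h alone. Arg1, the arginine-degrading enzyme of alternatively activated macrophages, went from 6.15 to 0.0355 FPKM. Cirbp, an RNA-binding protein induced by cold, went from 115 to 15.4 FPKM (-2.82) and was at 22.8 and 23.4 FPKM at 72 h and 96 h.

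Several of these falls need care because near-identical copies may divide reads, and an exact 0 can be a failed estimate. The pseudogene Atp6v0c-ps2 had the largest fall of all, from 39.7 FPKM to 0.00153 FPKM, yet stood at 10.7 FPKM at 72 h and is listed at 0 at 96 h. Ear7 was at 7.23 FPKM on, is listed at 0 at 48 h, and returned to 4.58 and 6.41 FPKM at 72 h and 96 h. Ear11, a relative of Ear7, showed no such return, with 0.185 and 0.0802 FPKM.

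Outside short RNA, 9 genes fell from at least 5 FPKM to under 0.5 FPKM at 48 h. Beside Atp6v0c-ps2, Cdh17, Ear11, Ear7 and Arg1 they were the chemokine Ccl7 (9.55 to 0.498 FPKM), the matrix proteoglycan Vcan (8.57 to 0.468 FPKM), the Ets factor Etv4 (6.05 to 0.0652 FPKM) and the epithelial cadherin Cdh1 (5.78 to 0.471 FPKM). In the other direction there were 2 such genes. Ifit3, an interferon-induced antiviral protein, went from 0.441 to 8.59 FPKM, and Ccnb1ip1, a ubiquitin ligase known from meiotic crossing over, from 0.358 to 7.12 FPKM. Ccnb1ip1 was at 7.99 and 9.08 FPKM at the later times, whereas Ifit3 was back to 2.86 FPKM at 72 h and 4.95 FPKM at 96 h.

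The 20 largest rises fell mostly into interferon, erythroid and neutrophil genes. Hbb-y, an embryonic beta-type globin, led with 17.4 FPKM on and 338 FPKM at 48 h (log2 change 4.21). Isg15, a ubiquitin-like interferon product, went from 18.3 to 211 FPKM (3.46), and the nucleic acid sensing relatives Oasl2, Oas3 and Oas2 rose by 3.37, 2.87 and 2.55. Fn3k, a kinase that removes sugar adducts from proteins, went from 4.63 to 36.9 FPKM (2.75), and Tac2, a tachykinin precursor, from 0.890 to 10.8 FPKM (2.65). Tac2 kept climbing, to 19.6 FPKM at 72 h and 29.4 FPKM at 96 h. The neutrophil collagenase Mmp8 went from 23.6 to 161 FPKM (2.73), and the formyl peptide receptor Fpr1, which guides neutrophils to bacteria, from 4.82 to 29.5 FPKM (2.39). Il1b, the inflammatory cytokine, went from 2.15 to 16.5 FPKM (2.47), then stood at 13.7 and 9.51 FPKM. Slfn4, a myeloid Schlafen gene, went from 11.6 to 64.0 FPKM and was at 42.4 and 30.3 FPKM later.

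**Figure D2:**
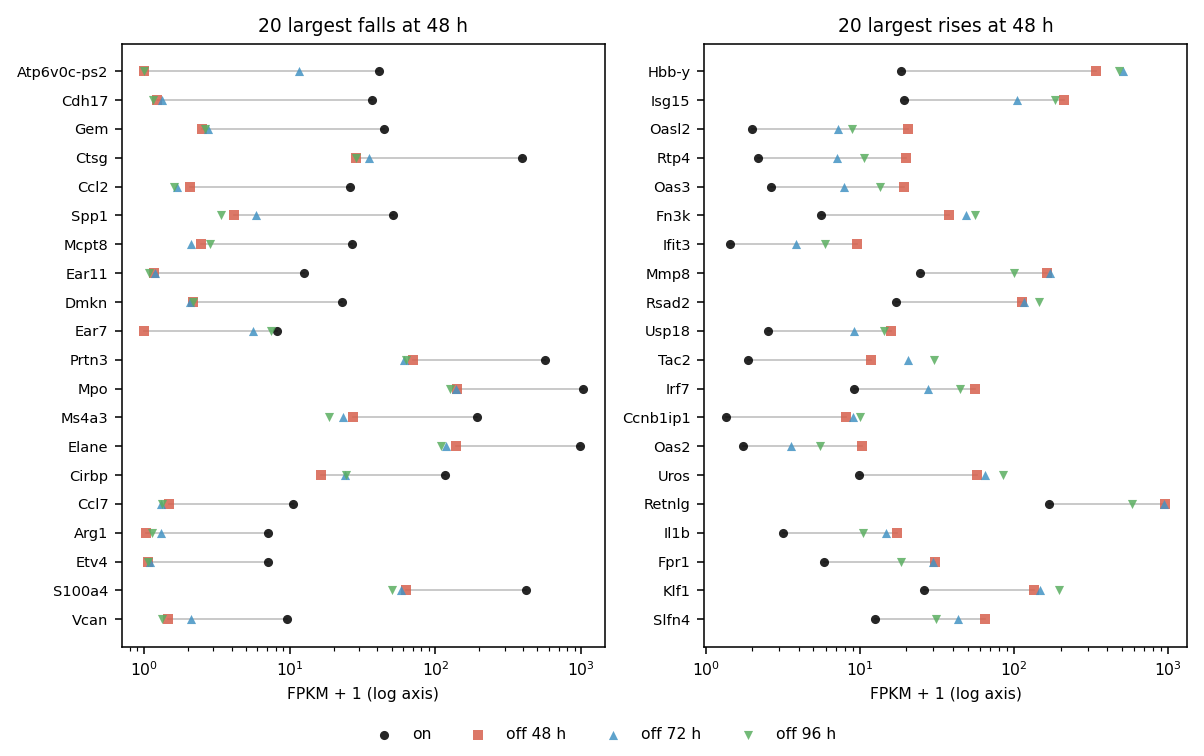
FPKM + 1 (log axis) in the on, off 48 h, off 72 h and off 96 h libraries for the 20 largest falls (left) and 20 largest rises (right) at 48 h; a grey line joins on and 48 h. For Cdh17, Gem and Mpo the 3 off values lie close together, while Ear7 and Atp6v0c-ps2 separate, and Oasl2, Rtp4 and Ifit3 are highest at 48 h.

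Several transcripts known to follow ERK were lower at 48 h. Of 19 passing members of the ERK feedback and output list, 7 had at least a 2-fold fall and 1 a rise, with a median of -0.84 against -0.14 for all genes. Among the 19, 2 passed through the on library alone, and with a pseudocount of 5 FPKM in place of 1 the count of falls was 2. The receptor kinase Epha2 was at 10.4 FPKM on and 1.38 FPKM at 48 h (-2.26), and Errfi1, which blocks the EGF receptor, at 7.96 and 2.23 FPKM (-1.47). The ERK phosphatase Dusp7 went from 19.99 to 6.94 FPKM (-1.40) and Dusp2 from 6.78 to 2.19 FPKM (-1.29). Spred2 and Spred1, inhibitors of RAF activation, changed by -1.22 and -1.14, and the cyclin Ccnd1 by -1.06. Il1rl1, the IL-33 receptor, went the other way, from 2.58 to 6.83 FPKM.

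Among 20 passing Ets, Egr and AP-1 factors, 7 were at least 2-fold lower and 0 higher, with a median of -0.79. Etv4 changed by -2.73 and its relative Etv5 by -1.81, from 14.8 to 3.50 FPKM. The early response factor Egr1 went from 10.1 to 1.79 FPKM (-1.99) and was at 1.67 and 1.74 FPKM at 72 h and 96 h, and Fos went from 8.45 to 1.78 FPKM (-1.76). Maff (-1.40), Egr3 (-1.31) and Jun (-1.12) made up the 7. Of these 20 genes, 4 passed through the on library alone, and with a pseudocount of 5 FPKM 3 were lower. By contrast, the kinases and regulators of the cascade itself stayed near the background: among 31 Ras regulators and RAF, MEK and ERK kinases, 0 were lower and only Rasgrp4, a myeloid Ras exchange factor, was higher (12.003 to 32.8 FPKM). Among 34 PI3 kinase, Akt and Foxo genes, Pik3ip1 (-1.43) and Cited2 (-1.02) were lower and Foxo3 (1.22) higher. Rasgrp4, Pik3ip1, Cited2, Foxo3 and the other members of lists with 5 or fewer calls named below were chosen after their values were seen.

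The primary granule proteases were the most reduced lineage group. Of 23 passing members of the primary granule and early myeloid list, 15 lay 2-fold or more lower in the 48 h library and 0 higher, with a median of -1.39. The protease cathepsin G, Ctsg, went from 391 to 27.6 FPKM (-3.77), with 33.7 and 27.4 FPKM at the later times. Prtn3 (proteinase 3) went from 559 to 69.3 FPKM (-2.99), and Mpo (myeloperoxidase) from 1025 to 139 FPKM (-2.88), with 137 and 124 FPKM later. Ms4a3, a membrane protein of granulocyte and monocyte progenitors, went from 192 to 26.2 FPKM (-2.82) and Elane (neutrophil elastase) from 979 to 138 FPKM (-2.82). The later values of these 5 genes lay near those at 48 h, with Ms4a3 the furthest below at 17.7 FPKM at 96 h. Ctsc, the protease that activates these enzymes, went from 80.7 to 30.2 FPKM (-1.39), and the proteoglycan Srgn that packs them from 339 to 101 FPKM (-1.73).

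Genes of later neutrophil stages were higher. Of 34 passing members of the secondary granule, gelatinase granule and late neutrophil list, 11 were at least 2-fold higher and 0 lower, with a median of 0.70; with the median shift of all genes set to 0, 15 were higher. Mmp8 led, followed by Retnlg, a resistin relative, at 167 FPKM on and 955 FPKM at 48 h (2.50). The gelatinase Mmp9 went from 43.2 to 186 FPKM (2.08) and the membrane-bound Mmp25 from 4.75 to 20.3 FPKM (1.89). Receptors of mature neutrophils were also higher, with Cxcr2, which binds CXC chemokines, at 9.89 and 38.5 FPKM (1.86) and Csf3r, the G-CSF receptor, at 13.3 and 43.4 FPKM (1.63). Lactoferrin, Ltf, went from 610 to 1755 FPKM (1.52). These values were highest at 48 h or 72 h: Retnlg was at 935 and 580 FPKM and Ltf at 1386 and 905 FPKM at 72 h and 96 h. The list median was 0.65 at 72 h and -0.03 at 96 h.

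Monocyte and macrophage genes split. Of 45 passing members, 12 showed a 2-fold fall or more and 2 such a rise, with a median of -0.27. The clotting transglutaminase subunit F13a1 went from 129 to 19.6 FPKM (-2.65) and the lipid-sensing receptor Trem2 from 38.7 to 5.38 FPKM (-2.64). The scavenger receptor Msr1 went from 19.3 to 3.21 FPKM (-2.27), the monocyte surface protein Ly6c2 from 481 to 159 FPKM (-1.60) and the endotoxin co-receptor Cd14 from 34.8 to 13.5 FPKM (-1.31). Other members of the list stayed within 2-fold. C1qa, a subunit of complement C1q, was at 82.4 FPKM on and 135 FPKM at 48 h, Vcam1 at 35.1 and 62.1 FPKM, and the F4/80 gene Emr1 at 18.2 and 19.1 FPKM. The 2 higher members were Timd4, a receptor for dying cells (0.430 to 3.47 FPKM), and Emr4, a relative of Emr1 (2.81 to 7.82 FPKM). Timd4 passed through the 48 h library alone, and Vcan, Gpnmb and Marco through the on library alone. The count of higher members was 0 with a pseudocount of 5 FPKM and 5 when libraries were scaled without globin and short RNA rows, where the median was -0.06. The list held 1.03% of the summed FPKM outside short RNA rows on and 1.06% at 48 h. The 9 monocyte and macrophage markers summed to 358 FPKM on and 477 FPKM at 48 h. Of these markers, Ccr2 and Cx3cr1 were lower and the others higher.

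Chemokine genes moved in opposite directions. Of 17 passing ligands, 6 lay 2-fold or more lower at 48 h and 3 higher (3 and 2 with a pseudocount of 5 FPKM). The lower ones were CC chemokines: Ccl2, Ccl7 (-2.82), Ccl9 (70.5 to 10.6 FPKM, -2.63), Ccl3 (8.27 to 2.16 FPKM, -1.55), Ccl4 (4.52 to 1.34 FPKM, -1.24) and Ccl12, which was at 1.87 FPKM on and is listed at 0 at 48 h. Ccl7, Ccl12 and Ccl17 passed through the on library alone and Cxcl9 and Ccl8 through the 48 h library alone, so their direction was built in. Ccl5 went from 9.75 to 31.8 FPKM (1.61), Cxcl12, the stromal ligand that retains progenitors in marrow, from 26.5 to 79.4 FPKM (1.55) and the interferon-induced Cxcl9 from 0.812 to 3.23 FPKM (1.22). The stromal collagen genes Col1a1 (89.6 and 116 FPKM) and Col1a2 (66.0 and 92.3 FPKM) were higher by less than 2-fold. Among 35 cytokine receptors, the erythropoietin receptor Epor (13.3 to 43.9 FPKM, 1.65), Csf3r and Il1rl1 were higher, and the IL-3 receptor subunit Il3ra (11.8 to 3.56 FPKM, -1.49), Il15ra (-1.35) and Il4ra (-1.18) lower.

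Genes of cell shape and migration were lower. Of 43 cytoskeleton and motility genes, 11 were at least 2-fold lower and 0 higher, with a median of -0.53. After Gem came the calcium-binding S100a4, at 415 FPKM on and 62.1 FPKM at 48 h (-2.72), the galectin Lgals1 (490 to 86.1 FPKM, -2.49) and S100a10 (409 to 98.2 FPKM, -2.05). The intermediate filament vimentin, Vim, went from 922 to 254 FPKM (-1.85) and was at 190 and 124 FPKM at 72 h and 96 h. Annexin A2, Anxa2, the partner of S100a10 at the membrane, went from 415 to 206 FPKM (-1.004). Of 36 adhesion genes, 6 were lower, among them the embigin gene Emb (111 to 24.1 FPKM, -2.16) and P-selectin, Selp (27.1 to 8.49 FPKM, -1.57), and Icam4, an erythroid adhesion protein, was higher (1.67). Of the 36, 2 passed through the on library alone and 1 through the 48 h library alone, so their direction was built in.

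Coagulation and proteinase genes had 10 of 35 members lower and 4 higher (6 and 2 with a pseudocount of 5 FPKM). Of these, F7 and Mmp12 passed through the on library alone and C2 through the 48 h library alone. Besides F13a1, the clotting factors F7 (3.49 to 0.166 FPKM, -1.95) and F10 (24.9 to 6.196 FPKM, -1.85) and the metalloproteinase Mmp19 (6.06 to 1.28 FPKM, -1.63) were lower. The complement gene C4b went from 3.24 to 15.3 FPKM (1.94) and the stefin Stfa2l1, a cysteine protease inhibitor of neutrophils, from 11.4 to 31.0 FPKM (1.37). The median of this list was about 0 (-0.003), and it became 0.15 once the median shift of all genes was set to 0.

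Regulators of the myeloid fate were lower in 9 of 32 cases and higher in 0, with a median of -0.35. Klf4, which promotes monocyte fate, went from 34.7 to 6.68 FPKM (-2.21), and Id2, an inhibitor of helix-loop-helix factors, from 201 to 65.7 FPKM (-1.60). Gfi1, the granulocyte repressor, went from 15.3 to 4.98 FPKM (-1.44), Cebpa from 40.8 to 14.4 FPKM (-1.44) and Cebpb from 61.2 to 22.1 FPKM (-1.43). Among 24 genes known as targets of MLL fusions, 5 were lower and 0 higher: Id2, the kinase Cdk6 (26.1 to 8.69 FPKM, -1.48), the survival gene Bcl2 (9.53 to 2.85 FPKM, -1.45), Mef2c (27.4 to 9.95 FPKM, -1.38) and the homeobox gene Hoxa7 (6.63 to 2.16 FPKM, -1.27). Their median of -0.25 became 0.03 when libraries were scaled without globin and short RNA rows. Cd34, the progenitor surface marker, went from 20.1 to 4.19 FPKM (-2.02), with 4.73 and 4.66 FPKM at the later times.

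Erythroid genes were higher as a group at 48 h. A 2-fold rise or more was found at 25 of 30 passing red cell membrane and blood group genes and such a fall at 1, with a median of 1.66. Fn3k led, then the Kell blood group gene Kel (15.7 to 83.2 FPKM, 2.33), the transporter Abcg4 (3.60 to 20.6 FPKM, 2.23) and the carbonic anhydrase Car1 (39.8 to 176 FPKM, 2.12). Band 3, Slc4a1, the anion exchanger of the red cell membrane, went from 285 to 695 FPKM (1.28). Levels were higher still at the later times: Kel was at 134 and 142 FPKM, Car1 at 240 and 337 FPKM and Slc4a1 at 1110 and 1046 FPKM at 72 h and 96 h, and the list median at those times was 2.15 and 2.24. The exception was the glucose transporter Slc2a1, at 16.2 FPKM on and 6.62 FPKM at 48 h (-1.17), or -0.98 when libraries were scaled without globin and short RNA rows.

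Erythroid regulators followed. Of 24 members, 14 were higher and 0 lower, with a median of 1.30. Klf1, which activates adult globin genes, went from 25.2 to 134 FPKM (2.37), Zfpm1, the partner of Gata1, from 28.4 to 133 FPKM (2.19), and Gata1 itself from 21.99 to 65.4 FPKM (1.53). The membrane protein Ermap (28.6 to 119 FPKM, 2.02) and the ubiquitin ligase Trim10 (43.8 to 169 FPKM, 1.92) were among the highest. Of 32 haem synthesis and iron genes, 19 were higher and 2 lower. Uros, an enzyme of haem synthesis, went from 8.91 to 56.8 FPKM (2.54), biliverdin reductase Blvrb from 113 to 424 FPKM (1.90), the ferrireductase Steap3 from 11.8 to 46.3 FPKM (1.89) and the transferrin receptor Tfrc from 58.1 to 217 FPKM (1.88). The erythroid form of the first enzyme, Alas2, went from 145 to 433 FPKM (1.57), whereas the housekeeping form Alas1 went from 54.8 to 22.2 FPKM (-1.27). Hmox1, which degrades haem and is high in macrophages, went from 261 to 76.6 FPKM (-1.76).

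All 8 passing globin genes had a change above 0, and 6 were at least 2-fold higher. Of the 8, 2 passed through the 48 h library alone, and for those a rise was built in. Hbb-b1 went from 762 to 3282 FPKM (2.10) and Hbb-b2 from 6140 to 18090 FPKM (1.56). Hbb-bh1, a second embryonic-type gene, went from 0.454 to 4.64 FPKM (1.96) and passed through the 48 h library alone. Reads of these genes may be divided between near-identical copies. Hba-a1 was at 3103 FPKM on, 9140 FPKM at 48 h and 12345 FPKM at 72 h but is listed at 0 at 96 h. An exact 0 can also be a failed estimate, and which of these applies was not tested.

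Many interferon-stimulated genes were higher at 48 h. Of 50 passing effectors, 31 were at least 2-fold higher and 0 lower, with a median of 1.25. Of the 50, 9 passed through the 48 h library alone, and for those a rise was built in; with a pseudocount of 5 FPKM 16 were higher. In the order on, 48 h, 72 h and 96 h, Isg15 stood at 18.3, 211, 103 and 182 FPKM, Oasl2 at 0.987, 19.6, 6.22 and 7.89 FPKM, the chaperone Rtp4 at 1.18, 19.0, 6.06 and 9.63 FPKM, and Oas3 at 1.65, 18.4, 6.88 and 12.5 FPKM. For all 4 genes the 48 h library was the highest and the 72 h library the lowest of the off libraries. Rsad2 (viperin, an antiviral enzyme) differed, at 16.02, 111, 114 and 144 FPKM. The list medians at 72 h and 96 h were 0.57 and 0.84.

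The upstream side of the pathway changed at fewer genes. Of 20 interferon receptors and regulators, 3 were at least 2-fold higher and 1 lower, with a median of -0.22. Among the higher, Irf7, which amplifies type I interferon, went from 8.20 to 55.1 FPKM (2.61) and Irf9 from 17.003 to 43.8 FPKM (1.31). Irf5 went the other way, from 94.3 to 41.0 FPKM (-1.18). Outside this list, Usp18, which removes Isg15 from proteins and restrains the receptor, went from 1.54 to 14.9 FPKM (2.65). Of 14 passing interferon-inducible GTPases, which attack vacuoles of intracellular parasites, 10 were higher and 0 lower, 6 of the 14 passing through 48 h alone, and with a pseudocount of 5 FPKM 4 were higher. Gbp8 went from 0.991 to 7.23 FPKM (2.05), Irgm2 from 5.10 to 23.4 FPKM (2.0005), Igtp from 9.75 to 40.1 FPKM (1.94) and Iigp1 from 0.803 to 3.99 FPKM (1.47). Antigen presentation did not share the rise: of 28 MHC class I genes only H2-T24 (12.3 to 64.7 FPKM, 2.31) and H2-T22 (1.63 to 6.66 FPKM, 1.54) were higher, and 0 of 13 class II genes passed 2-fold in either direction.

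Promoters of the interferon genes are shown because many members share one short element. The interferon-stimulated response element was searched as GAAANNGAAA on both strands of RefSeq promoters (GRCm38.p6), from 250 bases before to 50 after each start site; matches may overlap one another. A match was found in 18 of 35 interferon effectors with a promoter sequence (51.4%), in 8 of 9 GTPases (88.9%) and in 352 of all 9354 passing genes with one (3.76%). Among genes at least 2-fold higher the share was 9.07% (40 of 441), and among those at least 2-fold lower 3.96% (17 of 429). The windows below run 5′ to 3′ on the gene's strand, with each match in capitals, and stop before the start site. They lie at chr4:156200830-156200941 (minus strand) for Isg15, chr19:34583328-34583461 (plus) for Ifit3, chr12:26456518-26456617 (minus) for Rsad2, chr5:120777680-120777779 (minus) for Oas3 and chr11:58214868-58214967 (plus) for Irgm2. The window of Spp1, a gene that was lower, lies at chr5:104434909-104435008 (plus) and also holds a match.
Isg15: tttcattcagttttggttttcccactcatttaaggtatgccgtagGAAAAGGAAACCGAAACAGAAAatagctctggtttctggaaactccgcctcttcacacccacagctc
Ifit3: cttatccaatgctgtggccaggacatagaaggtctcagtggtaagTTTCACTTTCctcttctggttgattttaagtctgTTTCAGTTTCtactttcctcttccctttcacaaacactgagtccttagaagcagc
Rsad2: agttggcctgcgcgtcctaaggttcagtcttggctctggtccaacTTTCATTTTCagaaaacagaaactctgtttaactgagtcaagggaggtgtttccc
Oas3: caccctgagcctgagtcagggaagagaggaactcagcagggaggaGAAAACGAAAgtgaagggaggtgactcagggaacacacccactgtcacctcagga
Irgm2: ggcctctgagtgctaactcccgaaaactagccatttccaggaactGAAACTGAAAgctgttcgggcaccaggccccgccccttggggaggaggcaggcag
Spp1: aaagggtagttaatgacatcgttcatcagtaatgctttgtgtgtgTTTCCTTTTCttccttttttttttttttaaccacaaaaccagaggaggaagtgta

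In Isg15 3 overlapping matches form 1 run that ends 57 bases before the start site, and Ifit3 holds 2 separate matches. The GATA element, AGATAAG on either strand, was in 6.80% of promoters of the higher genes, 3.03% of the lower and 2.48% of all; 4 of 22 erythroid regulators, 3 of 17 red cell membrane genes, 1 of 24 haem and iron genes and 0 of 5 members of the globin list had one. Trim10 carries it at chr17:36869365-36869461 (plus strand), in reverse orientation, and Beta-s, a beta globin row outside that list that went from 3962 to 10978 FPKM, at chr7:103828087-103828178 (minus).
Trim10: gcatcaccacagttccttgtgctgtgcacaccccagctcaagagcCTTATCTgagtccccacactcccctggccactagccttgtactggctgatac
Beta-s: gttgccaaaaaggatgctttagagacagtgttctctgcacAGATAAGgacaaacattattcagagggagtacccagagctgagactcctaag

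An Ets element, CCGGAAG on either strand, had a match in 7.94% of promoters of the higher genes and 12.6% of the lower. Both shares lay below the 20.8% of all genes. Other elements were searched too. The AP-1 element, TGANTCA, was in 10.2% of the higher and 9.09% of the lower, both above the 6.4% of all. CACCC (CCNCACCC) and C/EBP (TTGCNNAA) shares were also above all genes in both groups, and CRE (TGACGTC) shares below in both. E-box (CACGTG) shares exceeded all genes only in the lower group, and NF-kB (GGGANNTNCC) shares only in the higher. A match of letters is a description and no measure of binding.

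**Figure D3:**
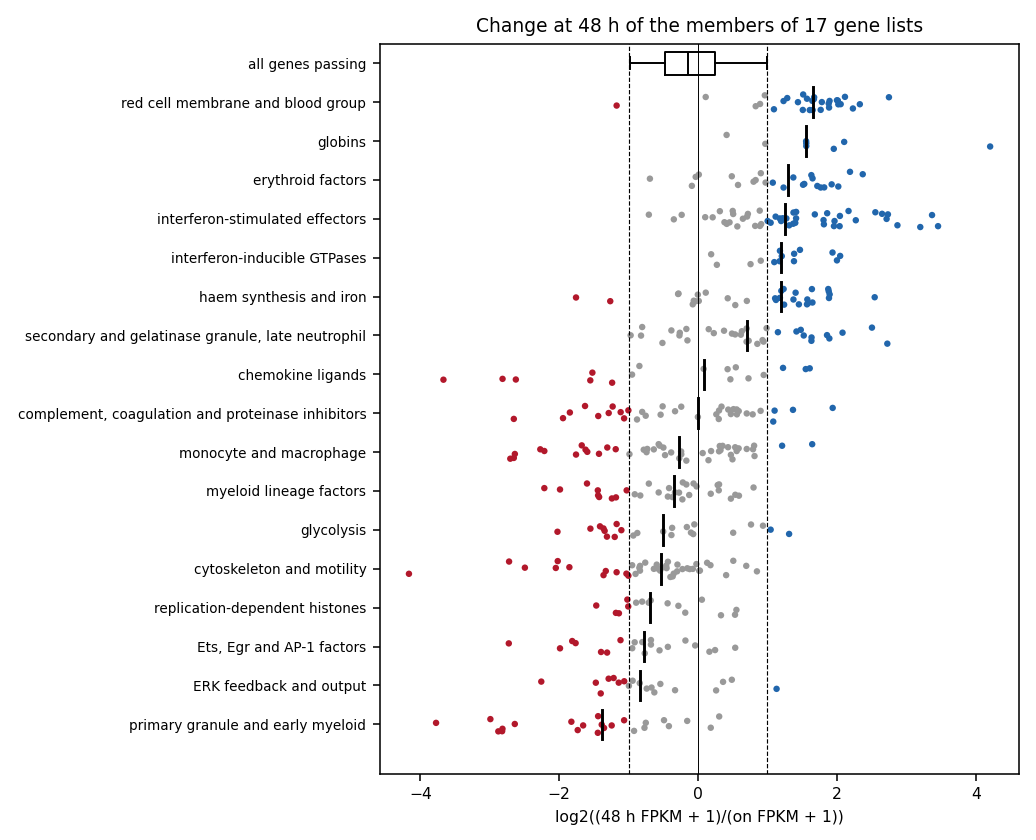
Log2 change at 48 h (horizontal) of each passing member of the 17 lists with at least 25% of members past 2-fold in 1 direction, with a black bar at each list's median; blue points are at least 2-fold higher and red points at least 2-fold lower. The top box shows all genes outside short RNA (box: quartiles; whiskers: 5th to 95th percentile), and the list medians run from -1.39 for primary granule genes to 1.66 for red cell membrane genes.

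Enzymes of glycolysis were lower. A 2-fold fall or more was found at 9 of 23 passing members and such a rise at 2, with a median of -0.50. Pgam1, phosphoglycerate mutase, went from 333 to 81.1 FPKM (-2.03), the phosphofructokinase Pfkp from 51.4 to 16.9 FPKM (-1.55), enolase Eno1 from 396 to 148 FPKM (-1.41) and Tpi1 from 255 to 98.6 FPKM (-1.36). The reference gene Gapdh went from 1476 to 593 FPKM (-1.31). Many of these genes have processed pseudogenes that may take part of their reads. The muscle and red cell form Pfkm went from 10.05 to 26.4 FPKM (1.31), and the lactate carrier Slc16a1 from 22.6 to 47.7 FPKM (1.05). Among 24 hypoxia genes 4 were lower and 0 higher: the mTOR inhibitor Ddit4 (148 to 28.7 FPKM, -2.33), the oxygen sensor Egln3 (10.6 to 2.24 FPKM, -1.84), Slc2a1 and Bnip3 (-1.15). The lipid list had 6 of 35 lower, led by lipoprotein lipase, Lpl (42.7 to 7.09 FPKM, -2.43), and 3 higher.

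Glutathione and amino acid genes went both ways. Of 28 oxidative stress and glutathione genes, 5 were lower and 5 higher: the transferase Gstm1 went from 150 to 24.2 FPKM (-2.59) and glutathione reductase Gsr from 272 to 103 FPKM (-1.40), while Gclm, a subunit of the enzyme that starts glutathione synthesis, went from 37.7 to 104 FPKM (1.44) and Prdx2, an abundant red cell peroxidase, from 421 to 973 FPKM (1.21). Hmox1, Gsto1 (-1.59) and Mgst2 (-1.18) were the other lower members, and Gstm5 (1.32), Nqo1 (1.16) and Mgst1 (1.14) the other higher ones. Of 30 Atf4 targets and amino acid genes, 7 were higher, among them the stress pseudokinase Trib3 (1.03 to 8.06 FPKM, 2.16), asparagine synthetase Asns (25.6 to 79.7 FPKM, 1.604) and Ddit3 (CHOP, 12.1 to 38.3 FPKM, 1.59), and 3 were lower. Of 22 unfolded protein response genes 0 passed 2-fold, and their median was -0.40.

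Proliferation genes had hardly moved at 48 h. Of 42 DNA replication genes only the cyclin Ccne1 was higher (26.4 to 54.2 FPKM, 1.01), and of 37 mitotic genes 0 passed 2-fold. The replication median was 0.03 at 48 h, 0.38 at 72 h and 0.61 at 96 h, and the mitotic median -0.19, 0.18 and 0.33, beside -0.14, -0.08 and -0.06 for all genes. Against these, cyclin and inhibitor genes of the G1 phase were lower at 4 of 20: Cdk6, the cyclins Ccnd2 (43.4 to 17.7 FPKM, -1.25) and Ccnd1 (60.3 to 28.3 FPKM, -1.06), and the inhibitor gene Cdkn2a (19.1 to 8.03 FPKM, -1.15). Mxd1, the Max partner that opposes Myc, went from 27.0 to 72.2 FPKM (1.39), and 0 of 38 ribosome biogenesis genes passed 2-fold. Replication-dependent histone genes had 5 of 16 passing members lower, among them Hist1h3c (5.11 to 1.21 FPKM, -1.47), Hist2h4 (3.69 to 1.07 FPKM, -1.18), Hist1h2bb (3.04 to 0.835 FPKM, -1.14) and Hist1h4b (2.05 to 0.507 FPKM, -1.02). Those levels are low, and 6 of the 16 passed through the on library alone. With the median shift set to 0, 2 of the 16 were lower, and with a pseudocount of 5 FPKM 0.

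Some survival and death genes passed 2-fold at 48 h. At least 2-fold lower were 16.7% of Bcl2 family genes and 9.52% of the caspase and death receptor list, beside 4.85% of all genes. Of p53 targets, 3.85% were lower and 7.69% higher, beside 5.0% of all genes higher. Of 18 Bcl2 family genes, Bcl2, the pore former Bak1 (81.4 to 35.9 FPKM, -1.16) and the BH3 gene Pmaip1 (16.1 to 7.11 FPKM, -1.08) were lower and 0 higher. In the caspase and death receptor list the necroptosis genes Mlkl (16.6 to 4.45 FPKM, -1.69) and Ripk3 (27.5 to 9.61 FPKM, -1.42) were the 2 of 21 lower. Of 26 p53 target genes Gadd45a (29.1 to 86.3 FPKM, 1.54) and Btg2 (18.6 to 52.2 FPKM, 1.44) were higher, and Pmaip1 lower. Lysosomal genes had 7 of 40 lower and 0 higher, with a median of -0.54. Their lower members included the galactosidase Gla (7.29 to 1.92 FPKM, -1.51) and the cathepsins Ctsc and Ctsa (93.3 to 37.8 FPKM, -1.28).

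**Figure D4:**
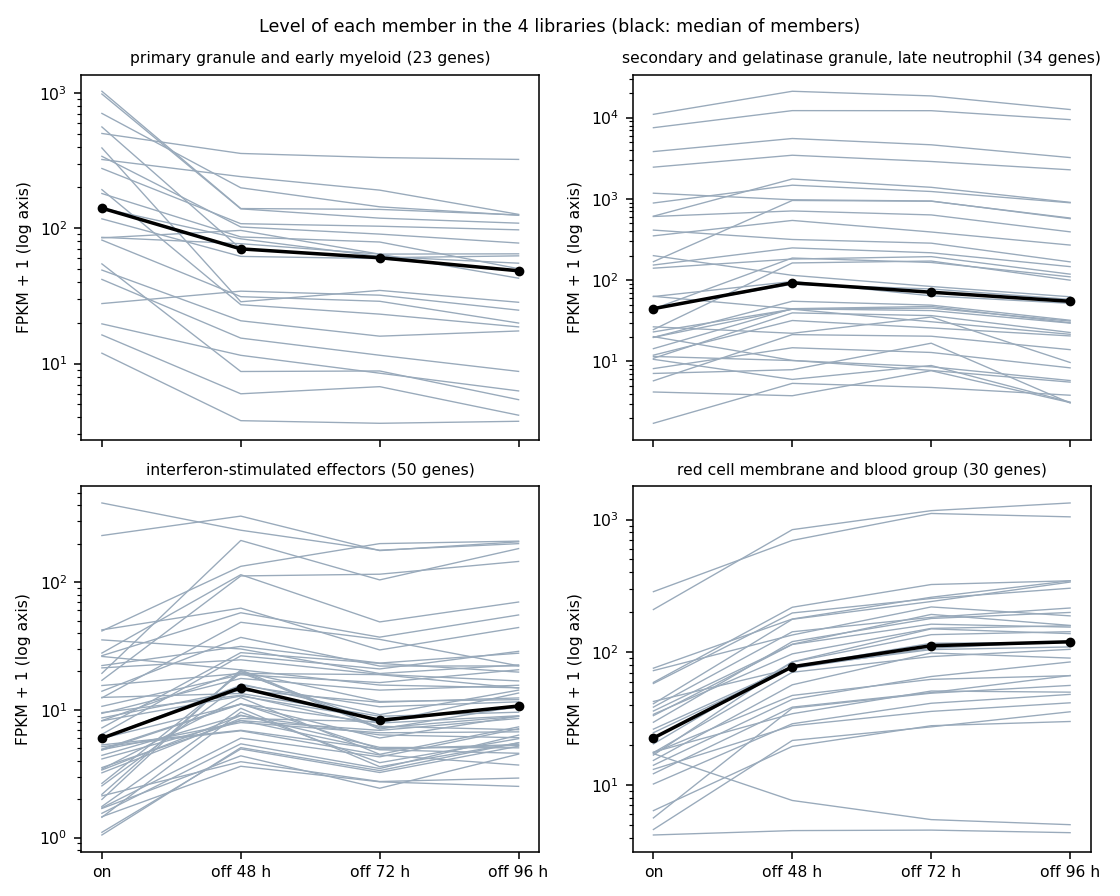
FPKM + 1 (log axis) of each passing member in the on, off 48 h, off 72 h and off 96 h libraries for 4 gene lists; the black line joins the medians of the members. Primary granule genes stand lower and red cell genes higher in every off library, while the medians of late neutrophil and interferon genes are highest at 48 h.

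Shares of the library shifted between groups. Outside short RNA rows, globin rows held 2.69% of the summed FPKM on and 8.75% at 48 h, and the late neutrophil list 5.67% and 10.4%. The largest single gains in FPKM were in Hbb-b2 and S100a9, a calcium-binding alarm protein of neutrophils that went from 10984 to 21120 FPKM, though its log2 change of 0.94 is short of 2-fold; S100a8 went from 7517 to 12200 FPKM. The cytosolic ribosomal proteins went from 13.2% to 9.89%, with all 49 members below 0 and none past 2-fold (median -0.55). Primary granule genes went from 1.17% to 0.397% and glycolysis from 0.996% to 0.510%. The largest losses in FPKM were in Eef1a1, an elongation factor (5098 to 3195 FPKM), the chromatin protein Ptma (3174 to 1687 FPKM), Rpl41, Tmsb4x, Rpl28, Rpl32, the prolyl isomerase Ppia (1912 to 897 FPKM) and Mpo. Because these shares are parts of a whole, a rise in one lowers the rest. The pan-leukocyte list of 20 genes had 0 members past 2-fold and a median of -0.43, with 18 members below 0 and 2 above. Ptprc was among those above 0, at 69.9 FPKM on and 101 FPKM at 48 h.

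**Figure D5:**
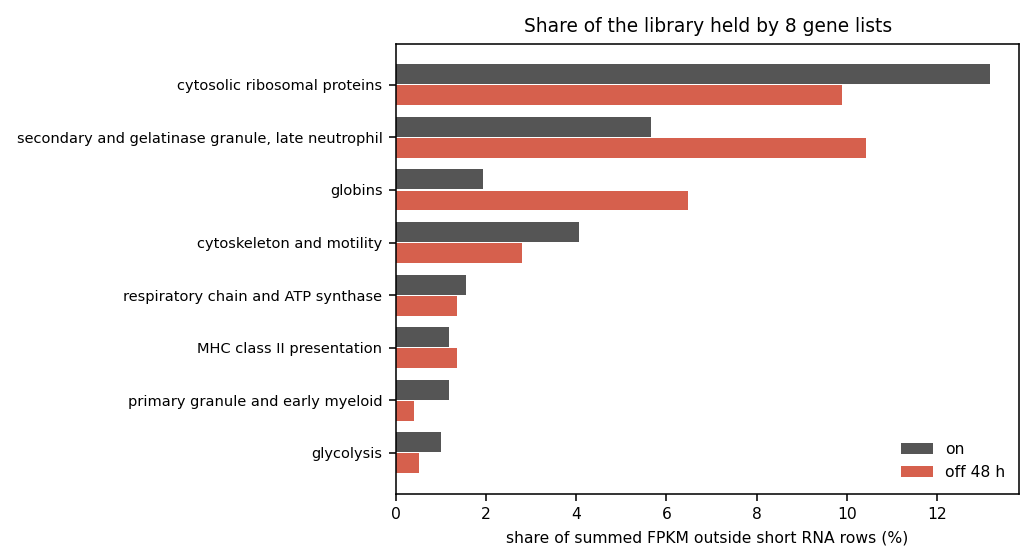
Share of the summed FPKM outside short RNA rows (horizontal, percent) held by 8 gene lists in the on library (grey) and the off 48 h library (red), 1 library each; some genes are in more than 1 list. Ribosomal protein genes went from 13.2% to 9.89% and late neutrophil genes from 5.67% to 10.4%.

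Some changes fell on neighbouring genes. In the RefSeq gene order, 10 runs of at least 3 adjacent passing genes were all at least 2-fold higher and 8 runs all at least 2-fold lower. The higher runs included Ifit3, I830012O16Rik, 2010002M12Rik and Ifit1; Gbp8, Gbp9 and Gbp4 next to Abcg3; Rsad2 and Cmpk2 next to Rnf144a; and Trim12c, Trim30b and Trim30a. The lower runs included the chemokines Ccl2, Ccl7 and Ccl12, and the granule proteases Mcpt8, Ctsg and Gzmc. Some of these runs are families of near copies, whose reads may be shared, others are unrelated neighbours such as Ppp2cb, Ubxn8 and Gsr, and the sources used here do not say whether counting used strand.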

How the data were processed

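The 48 h and on libraries are bulk RNA-seq of total RNA. The authors deposited FPKM tables; the submitters' processing notes list TopHat2 2.0.4, Cuffdiff and the build mm9. The sources used here give no Cuffdiff version, annotation or strand setting. Each deposited table pairs the on column with 1 off column and was scaled on its own. The 48 h table was used as deposited; the 72 h and 96 h columns were multiplied by 1.05 and 1.06, the median ratio of the shared on column, which then matched within 0.1% for 99.94% and 99.96% of 15825 values above 0. A table that combines the off times was not used. Time 0 columns were read as the on library, since doxycycline begins then.

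FPKM hold no counts, so depth is unknown and no intervals are given. From the steps between low values, 1 read gave 0.873 times as much FPKM at 48 h as in the on library, or 1.15 times as many reads per unit of FPKM; 31.8% of 647 low genes lay on such a step. An exact 0 can be a failed estimate: 16 rows, all short RNA, were at 20 FPKM or more in 1 library and at 0 in the other. Short RNA rows (microRNA, small nucleolar and similar) held 17.7% of the summed FPKM on and 54.8% at 48 h, and none is named.

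Changes used a pseudocount of 1 FPKM, a floor of 1 FPKM in either library and a call at 2-fold (Python 3.11.15, pandas 2.3.3, numpy 2.4.6; formula tested on simulated data). The 64 gene lists, of which 1844 of 1854 entries matched, were chosen with earlier results of these data known, as was the comparison itself, so no list is independent evidence; older symbols were added to 5 entries from the tables' gene names alone. A list is described in full where at least 25% of its passing members passed 2-fold in 1 direction (17 lists). Named genes are the 20 largest changes each way at 5 FPKM or more. From each list described in full come up to 4 members in the leading direction and 2 in the other. Also named are the 8 largest FPKM gains and losses and genes moving between under 0.5 and at least 5 FPKM. Nras, Mllt3, Mll1 and the genes beside the floor complete the set. Other names were chosen after their values were seen. Of the passing genes outside short RNA, 10446 were placed in RefSeq order by symbol, 1153 by synonym and 99 not; 9354 had a promoter sequence. No coordinates of the 2 builds were combined. A few genes of these lists are counted but not reported here by name.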

Additional observations from a re-analysis of the deposited data

How the results depend on the processing

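The number of genes past 2-fold depends on the pseudocount: with 0.1 FPKM it was 969 higher and 861 lower, and with 5 FPKM 281 and 250. Leaving out the filter gave 587 and 569 again, and a floor of 5 FPKM 476 and 472. Scaling moved the balance: 50.8% of the calls were higher as reported, 67.2% with the median shift set to 0 (811 and 395), and 70.1% with columns scaled without globin and short RNA rows (860 and 367). Of the 121 genes named by rule, none changed sign under these settings. Of them, 18 crossed the 2-fold line with a pseudocount of 5 FPKM, among them Fos, Errfi1, Dusp2, Ccl3, F7, Iigp1 and the histone genes, and 6 with either scaling. Other genes just past 2-fold, such as Anxa2, Cited2, Ccnd1 and Pmaip1, were not in that set and come inside it once the median shift is removed. The medians of the interferon effector and GTPase lists were 0.76 and 0.64 with 5 FPKM. With 1 library a side and unknown depth, no setting gives an error. No paired analysis was possible because each group holds 1 library.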
